A study of Solanum lycopersicum with 36 samples.

Results

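The comparison described here asked how the tomato line SGT1ami altered the change in leaf gene expression between 0 h and 3 h. For each gene the change from 0 h to 3 h in SGT1ami was set against the change over the same interval in its own wild type, and the difference of those changes is called the difference below. A positive difference means that the gene rose more, or fell less, in SGT1ami than in wild type. A negative one means that it rose less, or fell more. Genes were included where the deposited normalised read number reached 10 in 3 or more of the 12 libraries compared, which held for 21438 of the 29285 genes listed.

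SGT stands for sterol glycosyltransferase, an enzyme that attaches a sugar to a membrane sterol and so makes steryl glucosides, lipids of the plant plasma membrane. Plants that meet cold remodel their membranes, and leaves alter the transcripts of a wide range of genes within hours. SGT1 and SGT2 are members of the tomato sterol glycosyltransferase family.

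The 12 libraries came from Solanum lycopersicum cultivar Micro-Tom and formed 4 groups of 3: wild type at 0 h, wild type at 3 h, SGT1ami at 0 h and SGT1ami at 3 h. Leaves of plants about a month old were sampled, and a part of the plants had been moved from the warm chamber to 4 °C, per the labels' protocols. The labels give each library a line and a time but no temperature, so the interval is described as a change with time. They call the triplicates biologically independent. The suffix "ami" is read here as artificial microRNA. The promoter that drives the construct and the number of independent plant lines behind the name are not stated in what was used here. A second experiment of the series, with the line SGT2ox and its own wild type, supplied 12 more libraries at 0 h and 3 h that served only for comparison. All 36 libraries of the series include the 24 h groups, which were not part of the comparison. In whole leaves, fewer cells of a type and less RNA per cell cannot be told apart.

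None of the 29285 identifiers matched an entry of the reference gene table used here (0 matches), so the identifiers below carry no name or function, and no gene list or leaf marker could be looked up. The tissue label was therefore not checked. No more than 2 genes with a positive and 2 with a negative difference are named per class of the difference by the rule, and those chosen for another reason are said to be so.

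Libraries were similar in depth, with 38991283 to 41092141 reads and 23903 to 24032 genes detected. Principal component analysis of log2(value + 1) separated the 4 groups. The first component held 67.2% of the variance and placed the 6 libraries of 0 h between -65.2 and -59.9 and the 6 libraries of 3 h between 54.7 and 70.2. The second held 14.9% and parted SGT1ami, at 24.4 to 34.3, from wild type, at -29.7 to -28.5. The third held 4.5% and followed the difference itself. On it SGT1ami moved down, from 16.6 to 19.1 at 0 h to -16.1 to -15 at 3 h, and wild type moved up, from -17.3 to -16.4 to 13 to 15.6. Wild type replicate 1 at 3 h stood apart on the fourth component (1.91% of the variance), at -27.9 against 15.9 and 13 for its group's other libraries. Without that library 4732 genes had a called difference, against 5069 with it.

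**Figure D1:**
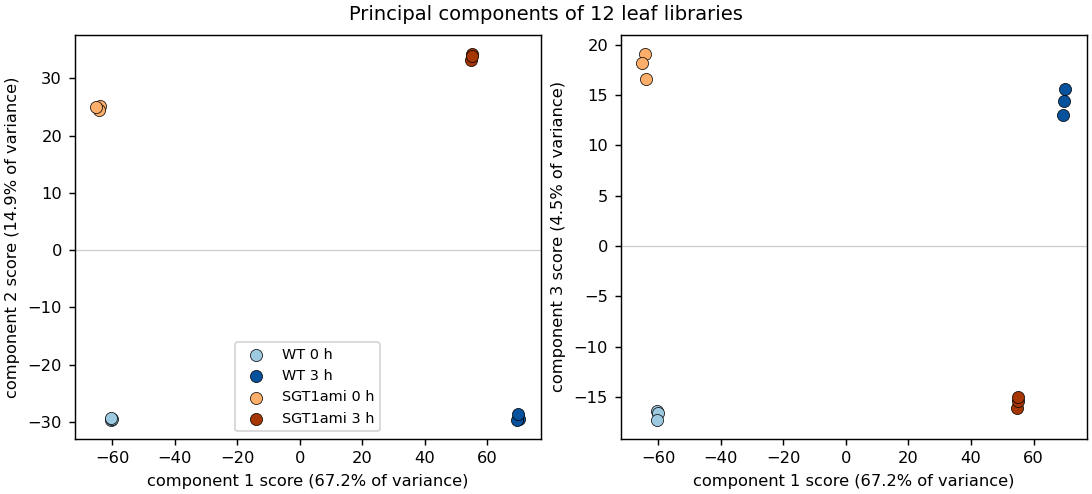
Scores of the 12 libraries on principal component 1 (x axis, 67.2% of the variance) against components 2 (left, 14.9%) and 3 (right, 4.5%), computed on log2(value + 1); each point is a library. Component 1 parts 0 h from 3 h, component 2 parts SGT1ami from wild type, and on component 3 the order of the genotypes turns over between 0 h and 3 h.

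The gene that the construct targets was looked at first. Its identifier, Solyc06g007980, was noted for SGT1 from memory of published work and is paired with that name by no table used here. Wild-type libraries held 7975, 7777 and 7784 normalised reads at 0 h and 5738, 6132 and 5973 at 3 h. SGT1ami libraries held 2356, 2463 and 2487 at 0 h, then 2268, 2399 and 2452 at 3 h. The genotypes did not overlap at either time. SGT1ami was 3.22-fold lower at 0 h (adjusted p = 1.7e-27) and 2.51-fold lower at 3 h (adjusted p = 1.5e-24). The transcript fell 1.32-fold in wild type between 0 h and 3 h (adjusted p = 7.2e-12), and the change in SGT1ami, 0.04 down on the log2 scale, did not pass the test (adjusted p = 0.37). Its difference was 0.36 (log2, SE 0.052, adjusted p = 1.3e-06), so Solyc06g007980 is itself among the genes called. Libraries labelled SGT1ami at 24 h held 6173 ± 51.25 reads of this gene (SD, n = 3) and wild type 6685 ± 214 (SD, n = 3), close to each other against the gap at 0 h and 3 h. The 24 h libraries go against their label in this respect and enter only an alternative fit.

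The identifier noted in the same way for SGT2, Solyc09g061860, rose in both genotypes. Wild type went from 3250, 3227 and 3200 reads at 0 h to 5272, 5287 and 5044 at 3 h. SGT1ami went from 2542, 2556 and 2549 to 5214, 5169 and 5032. SGT1ami began below every wild-type library, and the genotypes overlapped at 3 h. The rise was 1.61-fold in wild type and 2.02-fold in SGT1ami, a difference of 0.32 (log2, SE 0.047, adjusted p = 2.4e-06). At 3 h the genotypes were not called different (-0.02 on the log2 scale, adjusted p = 0.74).

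Between 0 h and 3 h most of the leaf transcriptome moved in both genotypes. In wild type 14533 genes changed, 67.8% of those tested, with 7052 (32.9%) higher and 7481 lower at 3 h. In SGT1ami 14381 changed (67.1%), with 6939 (32.4%) higher and 7442 lower. How rises and falls balance depends on how libraries are scaled. Scaled by library totals, 4710 genes were called higher and 11017 lower in wild type, and 4920 and 10557 in SGT1ami. The median change of all genes was then -0.25 in wild type and -0.22 in SGT1ami on the log2 scale, against -0.026 and -0.022 with the deposited scaling.

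SGT1ami altered the change of 5069 genes, 23.6% of those tested (limma, Benjamini-Hochberg adjusted p under 0.05). The difference was positive for 2358 (11%) and negative for 2711 (12.6%). Called differences were mostly modest: the median size was 0.37 on the log2 scale, the quartiles were 0.25 and 0.59, and 483 genes (2.25%) differed at least 2-fold, 229 of them positive and 254 negative. The median difference over all genes tested was 0.0055. Library totals moved that median to 0.029 and gave 2774 positive and 2387 negative calls, so the near balance of signs held but which sign led did not.

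Sorted by what each genotype did, the largest class was a smaller response in SGT1ami. Both genotypes changed the same way for 3109 of the 5069 genes, and for 1918 of these (61.7%) the change was smaller in SGT1ami. That held for 1198 of the 1920 rises (62.4%) and for 720 of the 1189 falls (60.6%). The other 1191 genes changed more in SGT1ami. A further 832 genes changed in wild type and were not called in SGT1ami, 801 changed in SGT1ami and were not called in wild type, 307 changed in opposite directions and 20 were called in neither. The opposite class had the widest differences, with a median size of 0.52 against 0.34 to 0.41 in the other classes with a called change. Changes of opposite sign add up in the difference, so the wide median of that class follows in part from the sorting. The classes were formed from the libraries that gave the difference, so their sizes are a description.

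**Figure D2:**
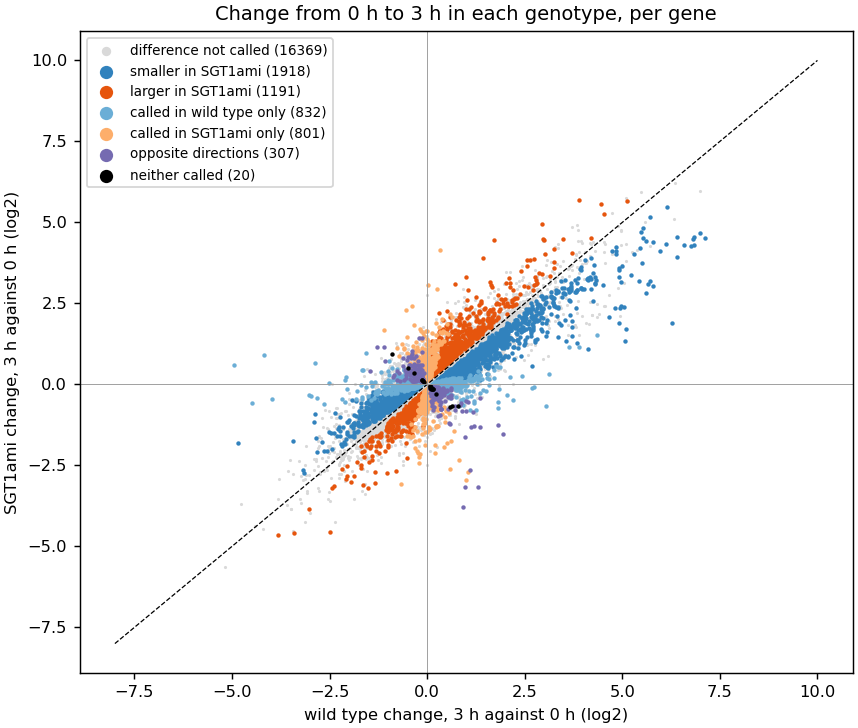
Change from 0 h to 3 h in wild type (x axis, log2) against that in SGT1ami (y axis, log2) for the 21438 genes tested, with the 5069 called differences coloured by class and the rest in grey; the dashed line marks equal changes. The 1918 genes with a smaller change in SGT1ami lie between the dashed line and the horizontal axis, and the 307 with opposite changes lie where the 2 changes differ in sign, upper left and lower right.

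The size of the response was also measured on genes picked elsewhere. Genes that rose or fell at least 2-fold in the wild type of the SGT2ox experiment share no library with the values compared here. Over the 2505 rising genes so chosen, the median change was 0.90 in wild type and 0.89 in SGT1ami, with a median difference of -0.014. Over the 2240 falling genes it was -0.69 in wild type and -0.58 in SGT1ami, with a median difference of 0.10. That was above the spread between libraries (SD 0.021), taken as the SD of a difference formed from a single library of each group. Of the 2240 falling genes 1322 were positive, beside 10898 of all 21438 genes tested. The falling genes stood level at 0 h (median of SGT1ami against wild type 0.00037) and apart at 3 h (0.10). Called differences numbered 880 among the rising genes (35.1%, 415 positive and 465 negative) and 635 among the falling genes (28.3%, 382 positive and 253 negative), beside 23.6% of all genes tested, 11% positive and 12.6% negative. The median over rising genes stayed within the spread (SD 0.023). With a choice at 4-fold the medians were -0.049 for rises, beyond that spread, and 0.16 for falls. Scaled by library totals, with genes chosen anew under that scaling (1427 rising and 4533 falling), they were -0.018 and 0.088. Relative to the median of all genes these were -0.048 and 0.058. Whether rises and falls differ in this respect was not tested. SGT2ox was measured likewise, on genes chosen at 2-fold in the wild type of the SGT1ami experiment. Its median differences were -0.11 over 2167 rising genes and 0.075 over 1293 falling genes. The median SGT2ox difference over all genes moved from -0.016 to 0.12 with library totals. With the deposited scaling the medians of both lines lay toward a smaller response, that of SGT1ami rises within the spread. The SGT2ox medians over rising and falling genes were not measured under another scaling. Whether the lines differ was not tested.

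Genes with opposite changes gave the plainest picture. Solyc07g064600 held 2300, 2262 and 2312 reads in wild type at 0 h and 770.3, 905.8 and 838 at 3 h. SGT1ami held 1197, 1140 and 1095 at 0 h, then 1407, 1610 and 1553 at 3 h. The line started below wild type and ended above it, with no overlap at either time: wild type fell 2.74-fold and SGT1ami rose 1.33-fold, a difference of 1.87 (SE 0.077, adjusted p = 3.2e-19). Solyc01g091170.3 crossed in the same way. Wild type went from 1783, 1840 and 1872 reads to 1575, 1633 and 1562, and SGT1ami from 943.5, 963.1 and 944.9 to 2582, 2624 and 2452. The fall in wild type was small, 1.15-fold, and the rise in SGT1ami was 2.68-fold, so the difference of 1.63 (SE 0.060, adjusted p = 1.5e-20) came mainly from the line.

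Solyc03g006490 and Solyc03g044790 crossed the other way. Solyc03g006490 rose in wild type from 269.9, 300.1 and 263.5 reads to 644.8, 783.8 and 725.3. In SGT1ami it fell from 763, 676.9 and 751.4 to 543.8, 580.5 and 516.8. SGT1ami libraries at 0 h lay within the range that wild type reached at 3 h, and the difference was -1.78 (SE 0.11, adjusted p = 5.4e-15). For Solyc03g044790 wild type rose 1.47-fold, from 220.4, 199 and 232.4 to 325.3, 338.7 and 292.8. SGT1ami fell 2.26-fold, from 514.7, 414.8 and 449.7 to 181.6, 216.2 and 209.5. The genotypes were apart at both times, and the difference was -1.73 (SE 0.14, adjusted p = 1e-11).

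Among genes that changed in wild type and were not called in SGT1ami, Solyc03g120990 had the most negative difference of all genes with a mean of at least 100 reads. The genotypes overlapped at 0 h, at 150.3, 102.7 and 131.7 reads in wild type and 132.4, 124.6 and 131.7 in SGT1ami. At 3 h wild type stood at 786.7, 909.6 and 781.2 and SGT1ami at 113, 127 and 118.9, with no overlap. Wild type rose 6.46-fold, the change of SGT1ami was -0.12 on the log2 scale (adjusted p = 0.40), and the difference was -2.81 (SE 0.17, adjusted p = 5.1e-15). The wild type of the SGT2ox experiment went the other way on this gene, from 1289 ± 19.5 at 0 h to 160.7 ± 18 at 3 h (SD, n = 3 each), so the rise was seen in a single wild type. Solyc04g071083.1, also with a negative difference (-1.50, SE 0.32, adjusted p = 5.5e-04), had scattered wild-type values at 3 h of 284.7, 140.3 and 126.2. Its 3 h wild-type libraries lay above every SGT1ami library at that time, at 66.7, 82.8 and 75.01, and the difference was -1.13 without wild type replicate 1 at 3 h.

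Falls that wild type made and SGT1ami did not pass the test for are shown by Solyc04g076190.1 and Solyc01g088400. Solyc04g076190.1 fell 2.70-fold in wild type, from 317.2, 318.4 and 287.5 to 113.9, 106.4 and 119.4. SGT1ami held 175, 207.4 and 201.7 at 0 h and 205.7, 208.8 and 201.2 at 3 h. Its values at both times lay between the 2 wild-type groups, and the difference was 1.51 (SE 0.15, adjusted p = 1.7e-09). Solyc01g088400 had the same arrangement: 666.6, 644.8 and 721 falling to 253.9, 253.5 and 246.6 in wild type, and 427.2, 422 and 474.9 beside 403.9, 452.6 and 432.7 in SGT1ami. The difference was 1.39 (SE 0.11, adjusted p = 3.1e-12).

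Other genes moved in SGT1ami and passed no test in wild type. Solyc01g105360 stood at 1435, 1472 and 1529 in wild type at 0 h and 1559, 1510 and 1461 at 3 h, which overlap. In SGT1ami it rose 2.52-fold, from 968.7, 902.8 and 826.2 to 2300, 2169 and 2318. The line was below wild type at 0 h and above it at 3 h, and the difference was 1.30 (SE 0.071, adjusted p = 5.5e-16). Solyc09g092750 behaved alike at a lower read number, with 56.75, 51.45 and 47.17 rising to 167.7, 157.3 and 169.2 in SGT1ami and overlapping wild-type groups of 88.14 to 122.2 and 95.56 to 110.3 (difference 1.65, SE 0.22, adjusted p = 4e-07).

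Solyc02g005070 differed between genotypes at both times. Wild type held 413.2, 429.1 and 420 reads at 0 h and 331.1, 386.1 and 342.9 at 3 h, and SGT1ami 108, 106.9 and 113.8 at 0 h and 17.6, 34.96 and 27.44 at 3 h. SGT1ami was below wild type throughout and fell 4.14-fold, and the change of wild type was -0.25 (log2, adjusted p = 0.15). The difference was -1.80 (SE 0.22, adjusted p = 7.4e-08). In the other experiment SGT2ox was also far below its wild type on this gene, at 4.89 ± 2.54 against 122.4 ± 8.39 at 0 h (SD, n = 3 each), although its difference was not called (0.08, adjusted p = 0.92). Solyc02g077590.1 fell in SGT1ami from 212, 184.9 and 141.5 to 33.35, 77.28 and 53.06, below the wild-type range of 103.3 to 120 at 3 h (difference -1.44, SE 0.28, adjusted p = 1.9e-04).

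Larger changes in SGT1ami were led by Solyc11g012130, the gene with the most positive difference among those with a mean of at least 100. Wild type rose 1.98-fold, from 119.6, 132.1 and 132.5 reads to 238.4, 264.2 and 262. SGT1ami rose 10.05-fold, from 90.65, 72.35 and 81.32 to 815.2, 874 and 785.8. The line was below wild type at 0 h and above it at 3 h without overlap, and the difference was 2.34 (SE 0.15, adjusted p = 2.3e-14). Solyc04g008330.1 rose by 0.32 (log2) in wild type, from 577.7, 593 and 562.1 to 685.3, 697.7 and 777.4. In SGT1ami it rose 4.64-fold, from 220.7, 181.7 and 194.4 to 923.6, 939.3 and 908.3. The lower start at 0 h made up the larger share of the difference of 1.90 (SE 0.10, adjusted p = 3.5e-16): SGT1ami minus wild type was -1.54 at 0 h and 0.36 at 3 h, in log2.

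Steeper falls in SGT1ami were seen for Solyc01g106620.2 and Solyc12g044950. Solyc01g106620.2 fell from 617.2, 583.6 and 614 to 162.1, 97.52 and 121.7 in SGT1ami. Wild type started at 207.8, 193.4 and 189.2 and ended at 129.3, 131.6 and 148.3, so the genotypes were apart at 0 h and overlapped at 3 h. The difference was -1.75 (SE 0.18, adjusted p = 1.6e-09). Solyc12g044950 fell 9.27-fold in SGT1ami, from 517.9, 471.9 and 440.8 to 56.51, 55.2 and 41.16, and 2.88-fold in wild type, from 229.8, 273 and 223.6 to 75.29, 93.87 and 80.92. SGT1ami was higher at 0 h and lower at 3 h with no overlap (difference -1.68, SE 0.19, adjusted p = 2.2e-08).

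**Figure D3:**
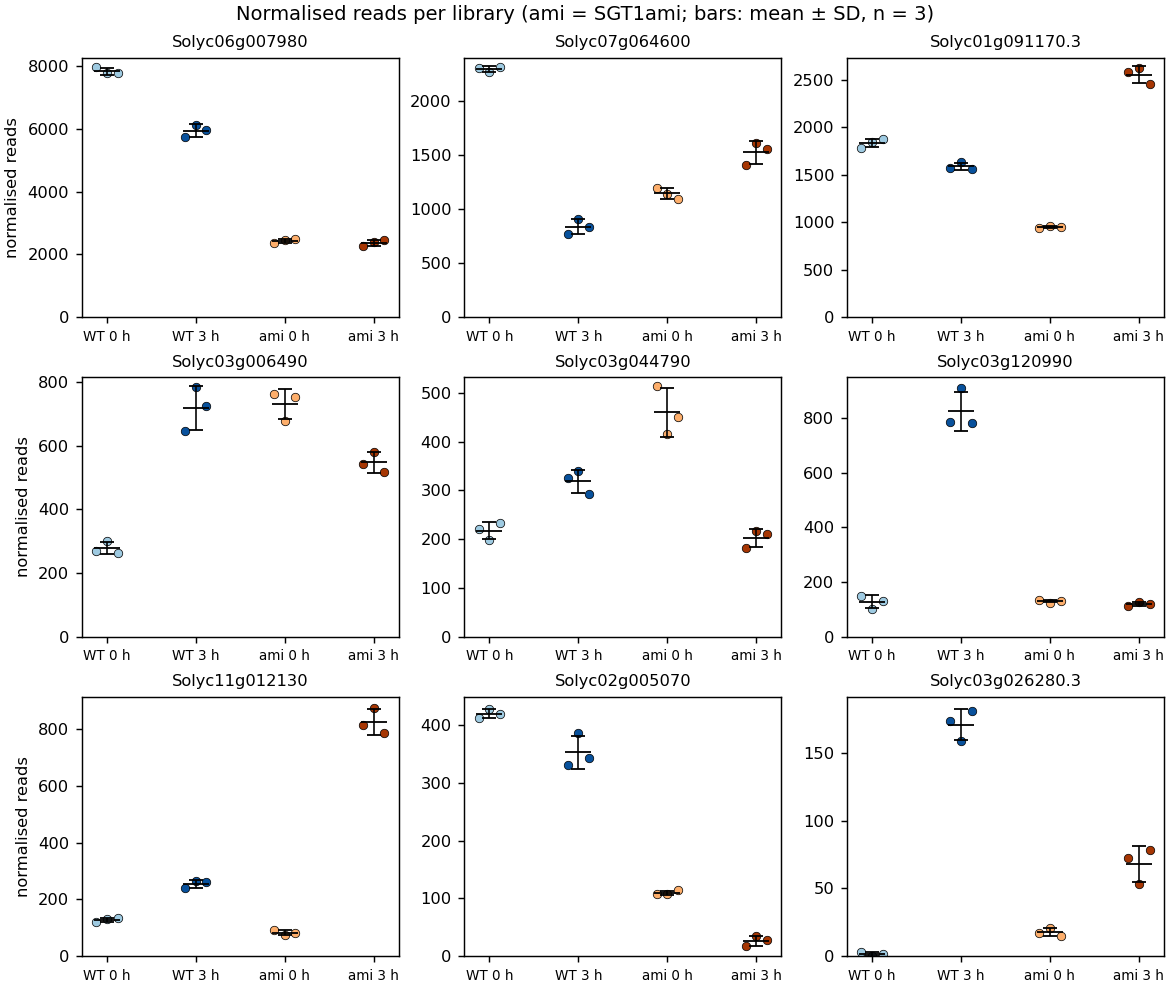
Normalised reads (y axes, linear from 0) of 9 genes in the 12 libraries, by genotype and time (x axes; WT, wild type; ami, SGT1ami); points are libraries and bars the mean ± SD of 3. In the top row, after Solyc06g007980, the genes Solyc07g064600 and Solyc01g091170.3 are lower in SGT1ami than in wild type at 0 h and higher at 3 h, and Solyc03g006490 and Solyc03g044790 show the reverse.

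Smaller rises were the most numerous class. For Solyc03g093120.5 wild type rose 50.4-fold, from 11.02, 6.368 and 7.985 reads to 489.4, 467.4 and 443.1. SGT1ami rose 8.55-fold, from 21.28, 28.14 and 24.4 to 230.7, 199.6 and 220.5. SGT1ami began above wild type and ended below it, and the difference was -2.56 (SE 0.27, adjusted p = 2.9e-09). The wild type of the SGT2ox experiment held 439.6 ± 8 reads of Solyc03g093120.5 already at 0 h (SD, n = 3). Solyc03g026280.3, chosen after its values were seen because its difference was the most negative among smaller rises at any read number, went from 3.148, 0 and 1.597 to 173.7, 158.7 and 181.1 in wild type and from 17.34, 20.9 and 14.64 to 72.26, 53.36 and 78.67 in SGT1ami. The difference was -4.40 (SE 0.49, adjusted p = 1.2e-08), with -3.82 without wild type replicate 2 at 0 h and -2.48 at a pseudocount of 10. The other wild type held 352.8 ± 10.1 reads of it already at 0 h (SD, n = 3). Solyc03g124110.2, chosen in the same way, ended at 32.82 to 58.06 in wild type and at 9.148 to 15.75 in SGT1ami (difference -3.72, SE 0.69, adjusted p = 8e-05; -1.74 at a pseudocount of 10). At 0 h wild type held 0 to 1.574 reads of Solyc03g124110.2, and the other wild type 266.2 ± 24 (SD, n = 3).

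Smaller falls were represented by Solyc11g068710 and Solyc02g094190. Solyc11g068710 fell 3.54-fold in wild type, from 506, 487.2 and 476.7 to 143.8, 136.4 and 132.9. It fell 1.43-fold in SGT1ami, from 480.8, 388.3 and 421.2 to 316.8, 302.7 and 281.7. The genotypes overlapped at 0 h and were apart at 3 h, with a difference of 1.31 (SE 0.13, adjusted p = 6.5e-10). Solyc02g094190 went from 463.5 to 476.7 down to 162.2 to 208.1 in wild type and from 339.1 to 403.6 down to 307.3 to 327.5 in SGT1ami (difference 1.14, SE 0.13, adjusted p = 2.4e-08).

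The 20 genes called in neither genotype lay near the threshold. Solyc10g078340 (0.28, adjusted p = 0.037), Solyc08g067290 (0.26, adjusted p = 0.039) and Solyc03g044090 (-0.51, adjusted p = 0.046) each lost the call under several alternatives. Solyc08g065600.1 was detected mainly in SGT1ami: 260.9, 257.2 and 236.6 reads in SGT1ami at 0 h and 155.6, 171.1 and 145.4 at 3 h, against 0 to 3.194 and 1.93 to 3.853 in wild type. Its difference of -1.46 (SE 0.50, adjusted p = 0.031) had no call with edgeR (adjusted p = 0.16) or DESeq2 (adjusted p = 0.15). It was -0.89 without wild type replicate 1 at 0 h and -0.81 at a pseudocount of 10. The wild type of the SGT2ox experiment held 150.5 ± 22.4 reads of Solyc08g065600.1 at 0 h and 0.82 ± 1.42 at 3 h (SD, n = 3 each), so its level also differed between wild types.

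The 2 most positive and 2 most negative differences at any read number were looked at after their values were seen. Solyc07g052020 held 25.97, 28.66 and 36.73 reads in wild type at 0 h and 0 in all 3 libraries at 3 h, while SGT1ami held 1.626 to 3.216 and 1.83 to 7.411. The difference of 5.55 (adjusted p = 2.7e-06) depends on the setting, with 2.23 at a pseudocount of 10 and 9.005 with edgeR, and no fold is given. Solyc07g052010, whose number nearly adjoins it, followed the same course, from 16.53 to 31.05 down to 0 to 1.935 in wild type (5.07, adjusted p = 1.5e-05; 2.02 at a pseudocount of 10). Whether those genes share reads was not examined. Solyc01g108710 fell in SGT1ami from 30.9 to 45.72 down to 1.83 to 1.853 and rose in wild type from 9.552 to 20.46 up to 19.27 to 48.38 (-4.71, adjusted p = 2e-08). The wild type of the SGT2ox experiment held 422.2 ± 18.3 reads of Solyc01g108710 at 0 h (SD, n = 3). Solyc02g070110.1 fell in SGT1ami from 42.29 to 53.6 down to 2.744 to 7.36 and rose in wild type from 3.184 to 6.388 up to 10.62 to 19.35 (-4.48, adjusted p = 2.3e-07). At a pseudocount of 10 the differences were -2.68 for Solyc01g108710 and -2.64 for Solyc02g070110.1.

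The difference was met more often at 3 h than at 0 h. SGT1ami differed from wild type in 4834 genes at 0 h (22.5%; 2610 higher and 2224 lower) and in 6981 at 3 h (32.6%; 3488 higher and 3493 lower). Of the 5069 genes with a called difference, 2248 (44.3%) differed between genotypes at 3 h only, 1183 (23.3%) at 0 h only, 325 (6.41%) at both times on the same side and 348 (6.87%) at neither time. The remaining 965 (19%) differed at both times on opposite sides, as Solyc07g064600 did, and had the widest differences, with a median size of 0.52 and 154 of at least 2-fold. Gaps of opposite sign at 0 h and 3 h add up in the difference, so the wide median of that group follows in part from the sorting. These counts come from the same libraries as the difference and describe where it lay.

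A block of identifiers starting with Solyc00g500 stood out and was chosen after its values were seen. Identifiers with 00 in that place are, by convention, not placed on a chromosome. Of 269 listed, 43 were tested, and 37 of those had no 0 h library at 10 reads, so they were included through their 3 h values. For 15 of the 43 wild type at 3 h was the only group to reach 10, so the filter itself favoured a negative difference there. A rise was called for all 43 in wild type and for 37 in SGT1ami, beside 32.9% and 32.4% of all genes, a count that inclusion through 3 h values favours. The difference was negative for 42, and 21 were called (48.8%), all negative, beside 23.6% of all genes called and 12.6% called negative. The median difference was -2.17, or -2.08 with the 13 genes that had a group at 0 set to a floor of 3 reads over the group, beside 0.0055 for all genes. Without the 15, a choice made after the data were seen, the difference was negative for 27 of 28, 14 were called, all negative, and the median was -1.90. Over all 43, at 0 h the median of SGT1ami against wild type was 0.17, and at 3 h it was -1.99.

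Solyc00g500063 had the highest read number in the block. Wild type held 464.3, 482.4 and 471.9 at 0 h and 58880, 61090 and 59470 at 3 h. SGT1ami held 491.1, 506.4 and 504.2 at 0 h, then 12790, 13420 and 12580 at 3 h. The genotypes were not called different at 0 h (0.08, adjusted p = 0.093) and lay far apart at 3 h: the rise was 126-fold in wild type and 25.8-fold in SGT1ami, a difference of -2.29 (SE 0.050, adjusted p = 1.9e-27). Solyc00g500083, the most negative smaller rise by the naming rule, went from 2.361, 0 and 4.791 to 420.8, 284.5 and 431.5 in wild type. SGT1ami went from 0.7882, 4.823 and 3.253 to 67.62, 86.48 and 90.56. The groups overlapped at 0 h and not at 3 h, and the difference was -2.58 (SE 0.60, adjusted p = 0.0014), with -1.87 without wild type replicate 2 at 0 h and -3.14 without replicate 3.

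Other members with a mean of at least 100 reads fell in the same range. Solyc00g500039 had a difference of -2.33, Solyc00g500062 of -1.89, Solyc00g500065 of -2.30 and Solyc00g500066 of -1.79, each called. Solyc00g500095 (0.58, adjusted p = 0.062) and Solyc00g500353 (-0.25, SE 0.12, adjusted p = 0.13) were not called, and both were higher in SGT1ami than in wild type at 3 h by group mean. As a share of all reads the 269 identifiers held 0.00223% to 0.00243% in wild type and 0.00282% to 0.00294% in SGT1ami at 0 h. At 3 h they held 0.175% to 0.18% in wild type and 0.0508% to 0.0524% in SGT1ami. Without Solyc00g500063 the shares at 3 h were 0.0181% to 0.0206% and 0.0166% to 0.0167%, so most of the gap in reads lay in that one identifier. In the SGT2ox experiment 5 of the 43 had a called difference, 4 of them negative, with a median of -0.61. That is 11.6%, below the 19.8% of all genes there. The test between both differences called 7, or 16.3%, near the 15.3% of all genes. Whether these identifiers share reads with near-identical sequences was not examined.

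**Figure D4:**
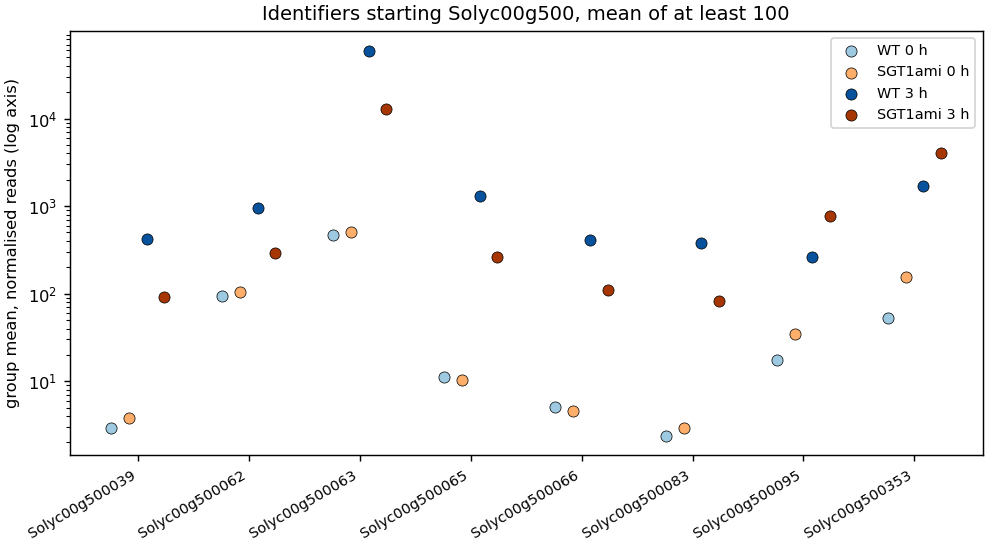
Group mean of normalised reads (y axis, log scale) for the 8 identifiers starting with Solyc00g500 that had a mean of at least 100 (x axis), with a point per group of 3 libraries. In 6 of the 8 wild type at 3 h lies above SGT1ami at 3 h while the 0 h points lie close together, and Solyc00g500095 and Solyc00g500353 show SGT1ami above.

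Calls followed read number closely. Of the genes with a mean under 30 reads 5.56% had a called difference, and all 143 of those differed at least 2-fold. The share was 10.2% from 30 to 100, 15.7% from 100 to 300, 23.9% from 300 to 1000, 36% from 1000 to 3000 and 46.8% from 3000 upward. The median SE of the difference went from 0.57 in the lowest class to 0.050 in the highest, where 15 of 1077 called genes reached 2-fold. A small difference was thus detectable in well-covered genes and not in others, so a gene without a call at a low read number is not shown to be unaffected. Negative calls outnumbered positive ones under 30 reads (84 to 59), from 1000 to 3000 (957 to 693) and from 3000 upward (621 to 456). Positive calls outnumbered negative ones from 30 to 100 (161 to 122), from 100 to 300 (298 to 251) and from 300 to 1000 (691 to 676).

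**Figure D5:**
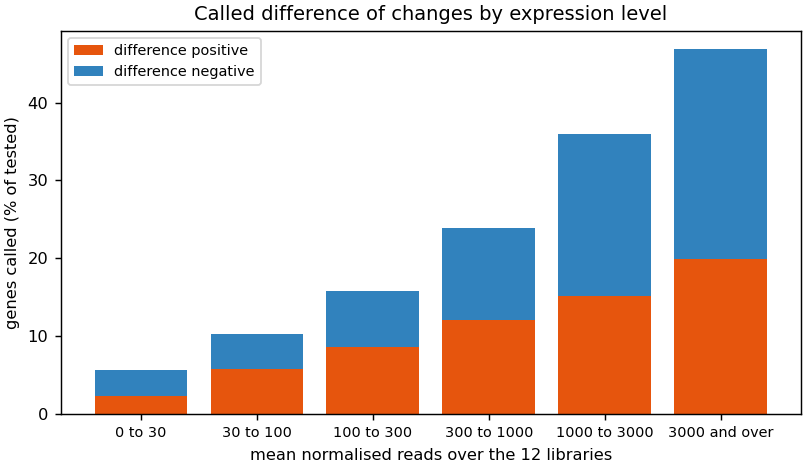
Share of tested genes with a called difference (y axis, %, from 0) by mean normalised reads over the 12 libraries (x axis), split into positive and negative differences; each bar is a class of genes. The share climbs from 5.56% under 30 reads to 46.8% at 3000 reads and over.

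Called genes were spread over the genome as far as the identifiers show. By the number that follows Solyc in the identifier, the share called ran from 19.8% (11) to 25.2% (10), near the 23.6% of all genes. The 44 tested with 00 held 21 called (47.7%), all of them from the block described above. Of the 483 genes that differed at least 2-fold, 30 (6.21%) were followed by a tested identifier that also differed at least 2-fold with the same sign, beside 2.25% of all tested genes that differed that far in either direction. That count includes the Solyc00g500 block, as with Solyc00g500062 and Solyc00g500063, and was not made without it.

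The difference in the SGT2ox experiment was the most similar measurement in the series and shares no library. There 4273 of 21585 genes were called (19.8%), 1665 positive and 2608 negative, although library totals turned that balance to 4133 positive and 1356 negative. Of the 20992 genes tested in both, 5026 had a called difference for SGT1ami and 4235 for SGT2ox, and 1887 for both. Negative in both were 883 genes, 32.8% of SGT1ami's 2689 and 34.2% of SGT2ox's 2585 negative calls. Positive in both were 530, 22.7% of SGT1ami's 2337 and 32.1% of SGT2ox's 1650. Over all genes tested in both, 12.3% were called negative and 7.86% positive for SGT2ox. For SGT1ami 12.6% of the genes tested were called negative and 11% positive. The share called for SGT1ami climbed with read number, and these shares of all genes are not matched for read number. How much of the overlap follows from read number was not tested. Signs were opposite for 474, 9.43% of SGT1ami's 5026 and 11.2% of SGT2ox's 4235 calls. Of SGT1ami's 2337 positive calls 315 were negative for SGT2ox, and of its 2689 negative calls 159 were positive for SGT2ox. Those counts lie near the shares of all genes called negative and positive for SGT2ox. Both differences correlated weakly across the 20992 genes (Pearson's r 0.15, Spearman's rho 0.20), and genes are no independent replicates.

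A test of the SGT1ami difference against the SGT2ox difference called 3214 genes (15.3%), 1908 higher in SGT1ami and 1306 higher in SGT2ox, and library totals turned this to 1238 and 2452. Of the 5026 genes called for SGT1ami, 1883 (37.5%) also passed that test. Of the 443 with a difference of at least 2-fold, 224 passed it, 88 were called the same way for SGT2ox and 37 the opposite way. Both sets were chosen on the SGT1ami difference, which is a part of that test, so the choice itself favours passing. Solyc04g008330.1 was called in the same direction in both lines: SGT2ox went from 118.4 ± 27.9 to 1726 ± 110.0 and its wild type from 348.9 ± 11.2 to 1664 ± 109 (SD, n = 3 each), a difference of 1.63 (adjusted p = 5.5e-09) beside 1.90 for SGT1ami. Also called the same way for SGT2ox were Solyc03g006490 (-1.33), Solyc03g044790 (-1.19), Solyc01g106620.2 (-1.27), Solyc02g077590.1 (-1.34), Solyc00g500063 (-0.96) and Solyc03g120990 (-0.64). So were Solyc09g061860 (0.31), Solyc01g105360 (0.36), Solyc03g026280.3 (-0.48) and Solyc03g124110.2 (-0.63). Solyc12g044950 was opposite, at 1.16 for SGT2ox (adjusted p = 4e-09) and -1.68 for SGT1ami, and the gap of -2.84 (SE 0.21, adjusted p = 1.2e-13) passed the test. Also called the opposite way for SGT2ox were Solyc09g092750 (-0.65), Solyc02g094190 (-0.60), Solyc04g076190.1 (-0.60), Solyc03g093120.5 (0.85), Solyc01g108710 (0.50) and Solyc08g065600.1 (6.68). The value of 6.68 rests on the fall in its wild type, since SGT2ox means were near 0 at both times (1.738 and 1.957). Line and experiment cannot be told apart in this comparison, since each line was grown with its own wild type and the wild types also differed, as for Solyc03g120990.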

How the data were processed

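Leaf poly(A) RNA was sequenced with DNBSEQ technology, per the labels' protocols. The authors deposited a normalised signal. Read from its values, it is each gene's count over a library's size factor, since dividing by the lowest non-zero value gave whole reads (tolerance 0.01) for 100% of entries. Trimmomatic, STAR, featureCounts and DESeq2 are named in the submitters' processing notes. Versions, roles, genome build, annotation and strand setting are not given there, so genes that overlap, or have near-identical copies, may share reads. Even numbers made up 79.7% of values of 2 to 11 reads, as when both mates of a fragment count.

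Groups came from sample titles. limma 3.58.1 (R 4.3.3) with a mean-variance trend was fitted to log2(value + 1) of 12 libraries as 4 group means (8 residual degrees of freedom). Two-sided p-values were adjusted (Benjamini-Hochberg) over all genes tested, and genes were called at 0.05. Fold changes are on the log2(value + 1) scale, which understates changes of low genes. The SGT2ox experiment was fitted alike, and both differences were compared in a fit of 24 libraries. edgeR 4.0.16 and DESeq2 1.42.0, on whole reads recovered from the deposited signal, were alternatives. The fit was tested on simulated data. No replicate pair of a group was a copied library (chi-square per gene 2.76 to 4.09 over 12 pairs). That check cannot show whether replicates came from separate plants.

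The rule named, per class of the difference, the 2 most positive and 2 most negative called genes with a mean of at least 100. The comparison, classes, lists and tests were chosen with earlier results of these data known. Gene lists and leaf markers had no matched identifier and were dropped.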

Additional observations from a re-analysis of the deposited data

Results flagged for a closer look

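The change from 0 h to 3 h differed between SGT1ami and its wild type for 5069 genes, and the SGT1ami difference differed from the SGT2ox difference for 3214, both by a test of the difference itself (limma, adjusted p under 0.05).

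Of the 33 genes named, 30 could be tested between the experiments, and 20 passed, beside 15.3% of all 20992 genes tested. Most were named for the size of their SGT1ami difference, which is a part of that test. The choice itself therefore favours passing, and the count of 20 is a description. The SGT1ami difference lay above the SGT2ox difference, in log2, by 0.26 for Solyc06g007980, 1.66 for Solyc11g012130, 2.30 for Solyc09g092750, 0.94 for Solyc01g105360, 1.74 for Solyc02g094190, 2.21 for Solyc07g064600, 1.81 for Solyc01g091170.3, 2.11 for Solyc04g076190.1 and 1.34 for Solyc01g088400. It lay below, with a gap of -2.84 for Solyc12g044950, -1.88 for Solyc02g005070, -3.41 for Solyc03g093120.5, -8.14 for Solyc08g065600.1, -0.45 for Solyc03g006490, -2.17 for Solyc03g120990, -2.99 for Solyc04g071083.1, -5.20 for Solyc01g108710, -3.92 for Solyc03g026280.3, -3.09 for Solyc03g124110.2 and -1.33 for Solyc00g500063. Line and experiment cannot be told apart in these gaps. The gap for Solyc08g065600.1 rests on groups near 0 reads, so its size is uncertain. In the SGT2ox experiment its mean was 150.5 in wild type at 0 h and 0.8228 at 3 h. SGT2ox held 1.738 and 1.957 reads of it at those times. Its SGT1ami difference had no call with edgeR or DESeq2. Solyc04g071083.1 was also low in that experiment, with means at 0 h of 4.598 in SGT2ox and 12.2 in wild type.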

How the results depend on the processing

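The total number of called genes in each comparison stayed within 1.5 times its value under TMM scaling, library totals, pseudocounts of 0.5 and 10, no filter, a mean of at least 100, the 24 h libraries in the fit, the replicate block, edgeR and DESeq2. For the SGT1ami difference these gave 5117, 5161, 5035, 5239, 4703, 4908, 4531, 4992, 5219 and 4927 calls in that order, and 4549 to 4931 with a library left out. Counts per sign moved further with library totals: 4133 positive and 1356 negative for SGT2ox in place of 1665 and 2608, and 1238 and 2452 between the lines in place of 1908 and 1306. For SGT1ami against wild type at 0 h the lead of higher genes turned over under TMM scaling and DESeq2. Same-numbered libraries did not deviate together (18 pairs, r from -0.0289 to 0.0164), so the replicate block with its 4992 calls shares only a number. The size of the response moved when genes were chosen at 4-fold, to -0.049 for rises and 0.16 for falls (the cause was not tested). With a library left out the medians ran from -0.022 to -0.0057 and from 0.0947 to 0.1075. With genes chosen anew under each scaling, TMM gave -0.0034 and 0.115, and library totals -0.018 and 0.088. Of 720 values of named genes under these settings 678 kept their call, 40 lost it and none turned, though low genes moved by over 1.5 times at a pseudocount of 10. The losses fell on Solyc03g044090 (12), Solyc08g065600.1 (12), Solyc08g067290 (9) and Solyc10g078340 (7). For Solyc07g052020 and Solyc07g052010 DESeq2 gave no adjusted p. The class called in neither genotype, 20 genes, held 31 without wild type replicate 2 at 3 h.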
